A study of Mus musculus with 21 samples.

Results

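The genes of the constitutive proteasome, the protease that breaks down most intracellular proteins of the heart, were examined in left ventricular RNA of 21 male mice. They comprise 41 genes chosen by symbol, of 55450 genes in the deposited table: 7 alpha and 7 beta subunits of the core rings, 6 ATPases of the base, 4 scaffold subunits and ubiquitin receptors of the base, 8 lid subunits, 4 assembly chaperones, and 5 genes that activate or inhibit the core. Each of the 41 passed the filter on low counts, which kept 17309 genes. The mice were of strain 129S6/SvEv and fell into 4 groups by genotype and diet. WT-CD (n = 5) were wild-type mice on a control diet, WT-EMPA (n = 5) were wild-type mice on the same diet with the SGLT2 inhibitor empagliflozin at 0.15 mg per g of diet, R403Q-CD (n = 7) were heterozygous Myh6+/R404Q mice (called R403Q) on the control diet, and R403Q-EMPA (n = 4) were such mice on the empagliflozin diet. The R403Q mutation lies in the alpha-myosin heavy chain, the main motor protein of the adult mouse ventricle, and models human hypertrophic cardiomyopathy. The diets began at 9 to 10 weeks of age and the study took RNA at 12 weeks, whereas the sample labels give 16 weeks of diet. By the cage numbers in the labels, mice were housed in 7 cages, of which 0 held both diets, so that diet and cage cannot be told apart.

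The proteasome core is a barrel of stacked rings: outer alpha rings gate the entry, and inner beta rings hold the catalytic sites of Psmb6, Psmb7 and Psmb5 (caspase-like, trypsin-like and chymotrypsin-like). A regulatory particle caps the barrel. Its base unfolds substrates with a ring of ATPases, and its lid removes the ubiquitin chain by the metalloprotease Psmd14. Alternative caps (the PA28 subunits Psme1, Psme2 and Psme3, and PA200, encoded by Psme4) open the gate without ATPases, Psmf1 (PI31) binds and can inhibit the core, and chaperones such as Pomp and Psmd9 assist assembly. Cells that lack proteasome activity raise subunit genes together through the transcription factor Nfe2l1, and cardiomyocytes depend on the system to replace sarcomere proteins.

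The 100 bases before the transcription start are shown for the 7 genes that passed the test in the averaged comparisons described further on, to show what short promoter motifs these genes do and do not share. Sequences and starts are those of RefSeq on GRCm38.p6, read 5′ to 3′ on the strand of the gene. The gene coordinates given further on are from GENCODE, and the 2 annotations differ in some starts. By GENCODE, the stretches of Psmc1, Psmd8, Psmc4 and Psma3 reach into the gene. The ETS core of Psmd8 and the last of those in Psmc1 lie in that part. Capitals mark a GC box (GGGCGG) or an ETS core (CGGAAG) on either strand. The stretches lie at chr2:61711594-61711693 (+ strand) for Psmd14, chr7:29180674-29180773 (- strand) for Psmd8, chr7:28050093-28050192 (- strand) for Psmc4, chr12:100110102-100110201 (+ strand) for Psmc1, chr3:108256826-108256925 (+ strand) for Psma5, chr12:70974523-70974622 (+ strand) for Psma3 and chr2:180042465-180042564 (- strand) for Psma7.
Psmd14: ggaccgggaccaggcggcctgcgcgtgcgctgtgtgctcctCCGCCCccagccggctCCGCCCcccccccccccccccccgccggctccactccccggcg
Psmd8: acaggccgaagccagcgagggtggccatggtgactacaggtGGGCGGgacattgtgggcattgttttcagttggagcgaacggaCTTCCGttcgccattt
Psmc4: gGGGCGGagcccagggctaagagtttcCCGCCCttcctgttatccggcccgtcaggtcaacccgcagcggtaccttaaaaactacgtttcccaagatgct
Psmc1: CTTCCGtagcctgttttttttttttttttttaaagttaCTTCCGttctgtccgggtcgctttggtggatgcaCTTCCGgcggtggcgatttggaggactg
Psma5: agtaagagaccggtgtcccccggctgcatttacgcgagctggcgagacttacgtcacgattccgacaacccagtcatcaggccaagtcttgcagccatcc
Psma3: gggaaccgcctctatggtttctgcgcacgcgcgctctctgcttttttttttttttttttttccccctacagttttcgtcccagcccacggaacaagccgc
Psma7: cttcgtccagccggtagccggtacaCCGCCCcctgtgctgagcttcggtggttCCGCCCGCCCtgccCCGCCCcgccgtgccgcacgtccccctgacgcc
In these stretches, GC boxes stood at 2 places in Psmd14, 2 in Psmc4, 4 in Psma7 (2 of them overlapping) and 1 in Psmd8. ETS cores stood at 3 places in Psmc1 and 1 in Psmd8, and Psma5 and Psma3 held 0 of either motif. RefSeq windows from 250 bases before to 50 after the start were at hand for 35 of the 41 genes (38 windows). An ETS core was in 57.9% of the windows of proteasome genes, against 16.9% of all 32851 mouse windows and 27.7% of the 14750 windows of tested genes. A GC box was in 63.2%, against 35.7% and 59.1%. The letters TGACNNNGC, the shape of element bound by Nfe2l1, were in 18.4% of proteasome windows against 12.4% and 14.1%, and a CCAAT box in 34.2% against 37.4% and 37.2%. The CACGTG E-box was in 7.89% against 7.15% and 9.53% and the palindrome TGACGTCA in 0% against 1.79% and 2.78%. These shares describe letters in a window and not binding.

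Library totals ran from 23491535 to 43539684 counts, so that 3 counts corresponded to 0.0621 to 0.127 CPM (counts scaled to a common library size after TMM normalisation), far under the level of any proteasome gene. Cardiomyocyte genes (Myh6, Tnnt2, Tnni3, Actn2, Ryr2, Pln and Mb) were abundant in every library, with summed levels between 46257 and 94939.5 CPM, whereas summed atrial markers ranged from 17.0 to 628 CPM. R403Q-CD replicate 2 stood apart, with summed natriuretic peptides of 11641 CPM, summed fibroblast markers of 5342 CPM and the lowest summed cardiomyocyte markers of the 21 mice. This mouse also had the highest level of the atrial marker Myl7 (180 CPM). The part of atrial tissue in its profile was not tested. In whole tissue, fewer cells of a type and less RNA per cell cannot be told apart.

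All 41 genes were expressed in every ventricle. Per kb of exon, the base ATPases had the highest median level (60.5 CPM per kb), followed by the beta ring (51.3), the alpha ring (39.6), the scaffold and ubiquitin receptors (32.96), the lid (26.5), the activators and inhibitor (24.9) and the assembly chaperones (6.81). The most abundant genes per kb were Psmc3 (107 CPM per kb), Psma6 (93.0), Psmc5 (84.9) and Psmb2 (84.6). The least abundant were Psmd9 (2.47), Psmd5 (3.63), Psmf1 (3.77) and the ubiquitin receptor Adrm1 (4.88). Members of 1 ring, which enter the particle in equal number, therefore differed in RNA level: within the alpha ring the range per kb ran from 7.46 (Psma3) to 93.0 (Psma6), and within the beta ring from 19.9 (Psmb3) to 84.6 (Psmb2). The order depended on the length used: per kb of the longest annotated transcript the medians were 81.7 for the ATPases, 80.5 for the alpha ring, 70.9 for the beta ring, 54.4 for the scaffold and receptors, 42.8 for the lid, 27.5 for the activators and inhibitor and 8.54 for the chaperones, so that the alpha ring came before the beta ring, and single genes moved by up to 11 ranks. Of the activators, Psme4 had 415 CPM in all but 49.5 CPM per kb, because its transcript is long, whereas Psme2 had 9.25, against 63.2 for Psme1, its partner in the PA28 ring.

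**Figure D1:**
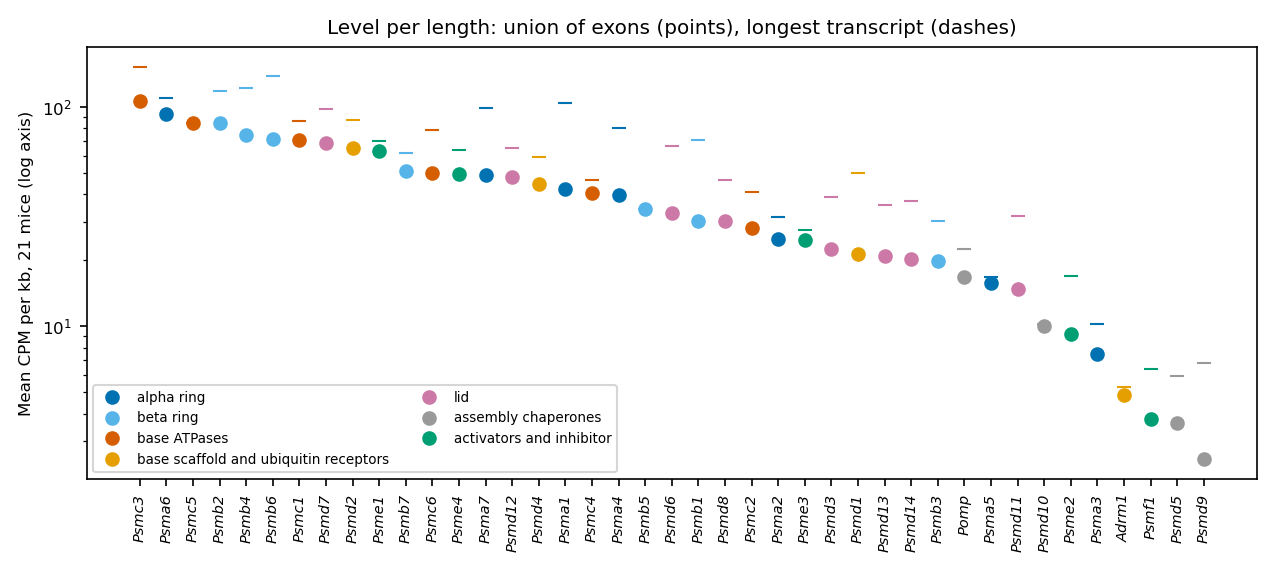
Mean CPM per kb of each of the 41 proteasome genes over 21 mice, on a log axis and ordered from highest to lowest, with length as the union of exons (points) or the longest transcript (dashes), coloured by subcomplex. ATPase and beta ring genes lie mostly on the left, and the assembly chaperones, at a median of 6.81 CPM per kb, on the right.

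Levels varied little between mice. The SD of log2 CPM within groups had a median of 0.115 over the 41 genes (0.0576 in Psmc4 to 0.197 in Psme4), against 0.203 over all genes tested and 0.134 over the 7887 tested genes in the same range of CPM. The ratio of the highest to the lowest of 21 mice was 1.22 for Psmd4 and 1.85 for Psme1. The highest value of a gene most often came from R403Q-CD replicate 4 (16 of 41 genes). The lowest came from WT-EMPA replicate 1 (9 genes), R403Q-CD replicate 2 (9 genes), WT-EMPA replicate 5 (7 genes) or WT-EMPA replicate 2 (6 genes).

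**Figure D2:**
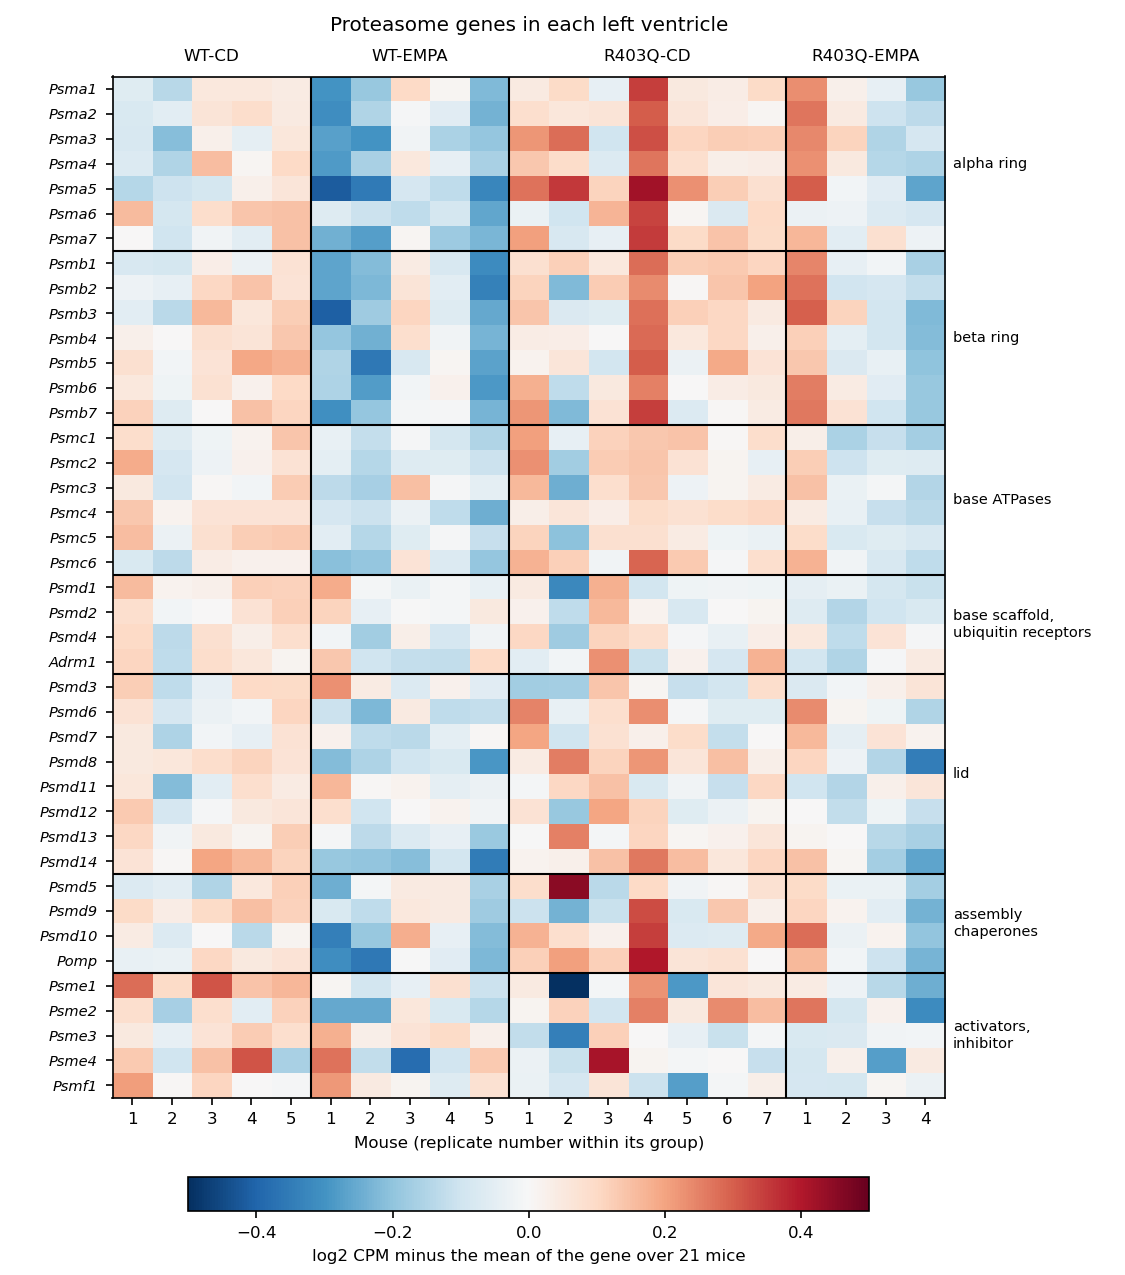
Log2 CPM of each proteasome gene in each mouse minus the mean of that gene over 21 mice (red higher, blue lower, scale from -0.5 to 0.5, values beyond it in the end colours), with genes in rows by subcomplex and mice in columns by group. WT-EMPA replicates 1, 2 and 5 are blue across both rings, R403Q-CD replicate 4 is red there, as is R403Q-EMPA replicate 1 except in Psma6, and rows of the base scaffold, the lid and the activators show less of this.

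The effect of the EMPA diet was examined in each genotype. On EMPA, 38 of 41 proteasome genes had a lower level in WT hearts and 37 of 41 in R403Q hearts, by small amounts: the median log2 fold change was -0.14 in WT and -0.08 in R403Q, against -0.00 over all genes tested in both. None of the 41 passed an adjusted p of 0.05 in either genotype by edgeR's quasi-likelihood test. The background was low as well, since 5 of 17309 genes passed in WT (0.0289%) and 2 in R403Q (0.0116%). At an unadjusted p under 0.05, 16 of 41 genes were lower and 0 higher in WT, where 11.0% of all genes passed in either direction and 5.08% were lower. With the length gradient described further on as a covariate, 6 of 41 were lower in WT at this p and 0 higher, with a median of -0.05, where 1405 of 17309 genes passed and 635 were lower. In R403Q hearts 7 were lower and 0 higher, where 13.4% of all genes passed and 6.36% were lower. DESeq2 called 2 proteasome genes in WT, Psmd14 and Psmc4 (adjusted p = 0.0131 for each), where it called 0.737% of genes, and 0 in R403Q, where it called 0.937%. The R403Q and WT diet effects did not differ detectably: the interaction had 0 calls among proteasome genes and 0 among all genes with both tools (0%), and 0 of 41 had an unadjusted p under 0.05, against 3.28% of all genes.

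Since the estimates in both genotypes had the same direction for most genes, they were averaged over genotypes, a comparison added after these values were seen. In this average 4 proteasome genes fell on EMPA and 0 rose, where 504 of 17309 genes (2.91%) were called. The 4 belong to the regulatory particle: the lid deubiquitinase Psmd14, the lid subunit Psmd8, and the ATPases Psmc4 and Psmc1. At an unadjusted p under 0.05, 16 of 41 were lower and 0 higher, where 20.1% of all genes passed and 9.41% were lower. The median over the 41 genes was -0.11, against -0.01 over all genes. DESeq2 called 10 lower, where it called 5.88% of genes: the same 4 and Psmd13, Pomp, Psmb5, Psma6, Psma5 and Psmb4.

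Psmd14 (ENSMUSG00000026914, GRCm38 chr2:61711694-61800376, + strand) had CPM values of 59.9, 57.4, 65.5, 64.0 and 61.8 in WT-CD and 50.1, 49.8, 49.3, 53.6 and 44.9 in WT-EMPA. It lay between 57.9 and 68.6 (median 61.6) in R403Q-CD and had 63.3, 57.5, 50.8 and 47.6 in R403Q-EMPA. The WT groups did not overlap, as was the case for 3.45% of all genes in that comparison, whereas in R403Q hearts replicate 1 on EMPA was within the range of the control diet. The log2 fold change (± SE) was -0.32 ± 0.07 in WT (adjusted p = 0.126), -0.17 ± 0.07 in R403Q (adjusted p = 0.290) and -0.24 ± 0.05 in the average, a level that fell by 15.6% (adjusted p = 0.0139).

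Psmd8 (ENSMUSG00000030591, chr7:29174188-29180701, - strand), a lid subunit, had 95.2, 95.7, 97.8, 99.4 and 96.5 CPM in WT-CD and 79.1, 82.6, 85.8, 87.2 and 75.2 in WT-EMPA. R403Q-CD hearts lay between 93.8 and 109.9 (median 99.3) and R403Q-EMPA hearts had 99.0, 90.4, 83.2 and 72.3. All 5 WT-EMPA mice were below all 5 WT-CD mice, and 3 of 4 R403Q-EMPA mice were below the lowest R403Q-CD mouse. Its log2 fold changes were -0.24 ± 0.07 in WT (adjusted p = 0.229), -0.22 ± 0.07 in R403Q (adjusted p = 0.198) and -0.23 ± 0.05 in the average (adjusted p = 0.0172).

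Psmc4 (ENSMUSG00000030603, chr7:28041707-28050101, - strand), an ATPase of the base and the gene with the smallest spread within groups, had 95.8, 88.2, 91.4, 91.4 and 91.4 CPM in WT-CD against 82.3, 81.0, 85.4, 79.9 and 73.6 in WT-EMPA. R403Q-CD hearts lay between 88.9 and 93.6 (median 91.9) and R403Q-EMPA hearts had 89.7, 85.0, 80.6 and 79.4. The WT groups again did not overlap, while R403Q-EMPA replicate 1 lay within the R403Q-CD range. The average log2 fold change was -0.16 ± 0.03 (adjusted p = 0.0171), from -0.19 in WT (adjusted p = 0.156) and -0.13 in R403Q (adjusted p = 0.256).

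Psmc1 (ENSMUSG00000021178, chr12:100110154-100123405, + strand), a further base ATPase, had 145, 131, 134, 138 and 150.3 CPM in WT-CD and 133, 126, 136, 128 and 123 in WT-EMPA. It lay between 133 and 157 (median 148) in R403Q-CD and had 139, 122, 126 and 121 in R403Q-EMPA. Its values overlapped between diets in both genotypes. The average log2 fold change of -0.15 ± 0.04 was at the threshold (adjusted p = 0.0452), and it was the gene with the smallest unadjusted p in R403Q hearts (-0.20 ± 0.06, adjusted p = 0.181).

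Psmd14 and Psmd8 kept an adjusted p under 0.05 in the average under each of 6 other settings and without any single mouse (adjusted p of at most 0.0433 for Psmd14 and 0.0484 for Psmd8). Psmc4 lost it without the filter on low counts (0.0522) and without R403Q-EMPA replicate 3 or 4 (up to 0.0519). Psmc1 lost it in 4 of 6 settings and without any of 16 of the 21 mice (up to 0.113), while its log2 fold change lay between -0.18 and -0.12 throughout. With cage as a random effect the adjusted p was 0.0341 for Psmd14, 0.0453 for Psmd8, 0.0492 for Psmc4 and 0.104 for Psmc1. This model borrows the cage effect from within diets and does not separate diet from cage.

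**Figure D3:**
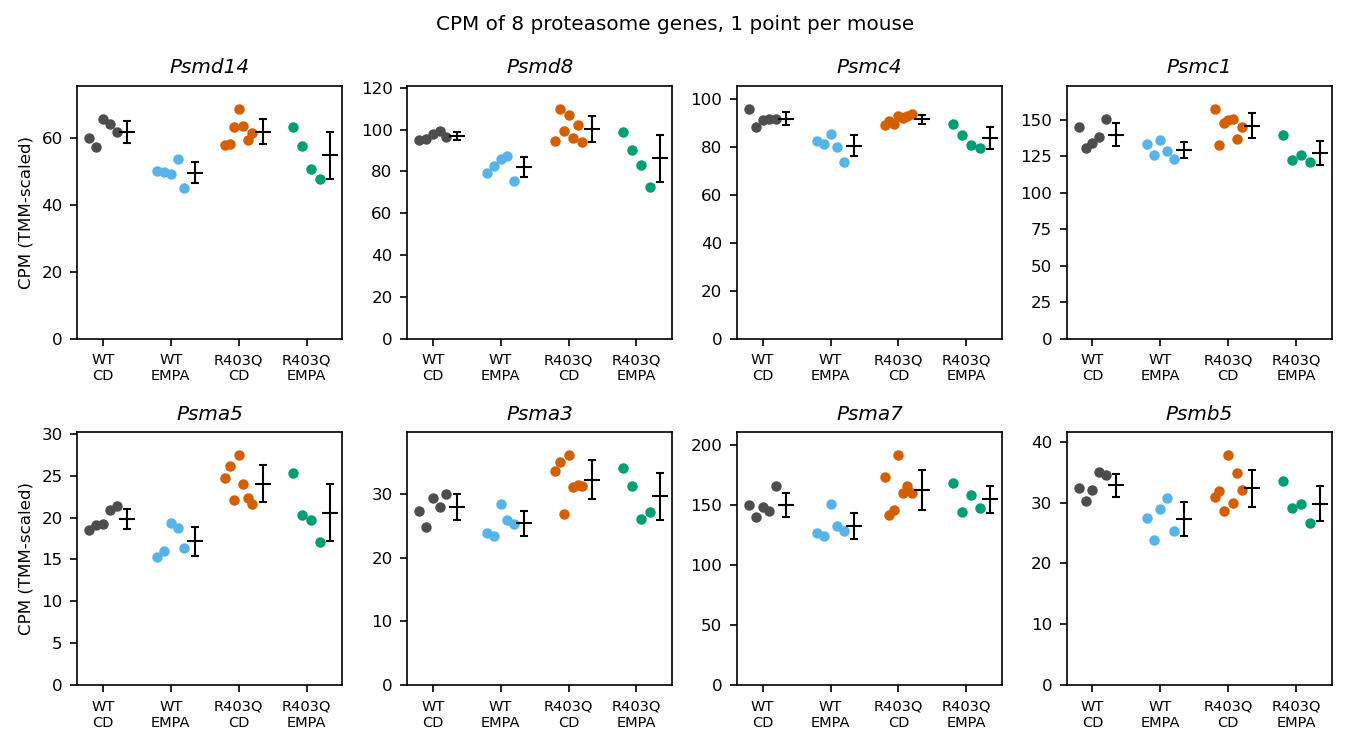
CPM (TMM-scaled, axes from 0) of Psmd14, Psmd8, Psmc4, Psmc1, Psma5, Psma3, Psma7 and Psmb5 in each group, 1 point per mouse, with the group mean and SD in black beside the points. Psmd14, Psmd8 and Psmc4 of WT-EMPA hearts lie below all WT-CD hearts, and Psma5 of R403Q-CD hearts lies above all WT-CD hearts.

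The core rings were lower on EMPA in 14 of 14 genes in each genotype, with median log2 fold changes of -0.18 in WT and -0.09 in R403Q hearts, and none passed the adjusted threshold. Of the catalytic subunits, Psmb5 (chymotrypsin-like) stood at a mean ± SD of 32.9 ± 1.93 CPM on CD and 27.3 ± 2.76 on EMPA in WT hearts (5 mice each), and of 32.3 ± 3.08 (7 mice) and 29.8 ± 2.90 (4 mice) in R403Q hearts. Its WT difference of -0.27 ± 0.08 was the largest of the ring genes (adjusted p = 0.264). Psmb6 (caspase-like) had 138 ± 4.60, 122 ± 12.2, 140.1 ± 11.9 and 136 ± 18.0 CPM in these groups, a log2 difference of -0.18 ± 0.08 in WT and -0.05 ± 0.08 in R403Q. Psmb7 (trypsin-like) had 182 ± 11.0, 158 ± 14.8, 183 ± 23.6 and 177 ± 25.0 CPM, a log2 difference of -0.21 ± 0.10 in WT and -0.05 ± 0.10 in R403Q. For these 3 subunits the WT estimates exceeded the R403Q estimates in size, but the interactions were 0.15 ± 0.11, 0.14 ± 0.12 and 0.16 ± 0.14, with unadjusted p of 0.205, 0.246 and 0.249.

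The regulatory particle was mostly lower on EMPA as well. The base ATPases were lower in 6 of 6 genes in each genotype (medians -0.12 in WT and -0.10 in R403Q), and the scaffold subunits Psmd1 and Psmd2 with the receptors Psmd4 and Adrm1 in 4 of 4 (medians -0.06 in both). The 8 lid genes ranged widely, from the called Psmd14 and Psmd8 through Psmd13 (-0.14 ± 0.04 in the average, adjusted p = 0.0640) to Psmd3 (0.02 ± 0.05, adjusted p = 0.844). Among the chaperones, Pomp, which guides beta ring assembly, had the lowest estimates (-0.21 in WT and -0.19 in R403Q, average adjusted p = 0.0628). Psme1 was lower in all WT-EMPA than in all WT-CD mice (136 ± 7.33 against 159 ± 10.3 CPM, SD, log2 fold change -0.23 ± 0.10, adjusted p = 0.430), and was the fourth gene without overlap between the WT groups beside Psmd14, Psmd8 and Psmc4. In R403Q hearts 0 of 41 genes separated the diets, against 1.62% of all genes. Psme3 and Psmf1 were near 0 in both genotypes (0.02 and 0.02 for Psme3, -0.00 and 0.01 for Psmf1).

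Of the cell type markers, 4 of 5 erythroid genes were called higher in the same average, with summed levels between 706 and 1717 CPM in CD and between 1214 and 2660 CPM in EMPA hearts, and their part in the proteasome differences was not tested. Of the other lists, 2 of 6 endothelial genes were called higher, and 0 of 7 cardiomyocyte, 0 of 6 fibroblast, 0 of 6 macrophage, 0 of 4 lymphocyte and 0 of 2 natriuretic peptide genes were called. Smooth muscle and pericyte markers had 0 of 6 calls, with 6 of 6 lower on EMPA (median log2 fold change -0.55, 3 at an unadjusted p under 0.05), and atrial markers had 0 of 4, with 3 of 4 lower (median -2.31, the same 3 at an unadjusted p under 0.05). Their part in the proteasome differences was not tested either.

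**Figure D4:**
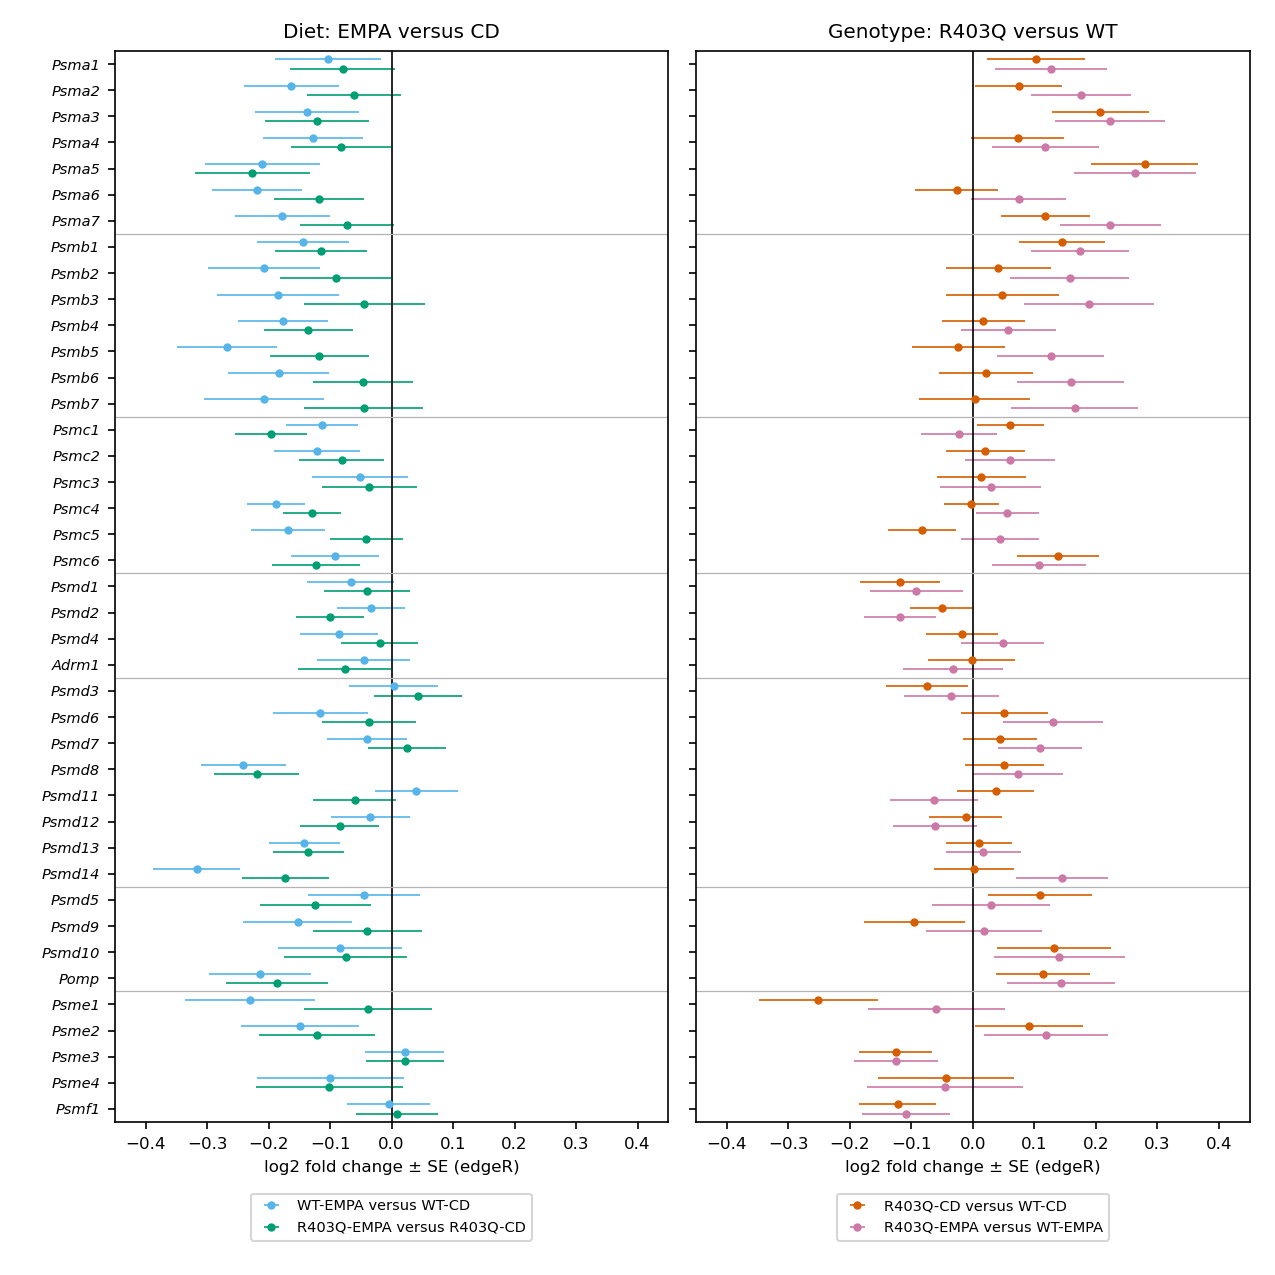
Log2 fold change with its SE (edgeR) of each proteasome gene, by subcomplex from the alpha ring at the top to the activators at the bottom, for the diet effect in WT and R403Q hearts (left) and the genotype effect on CD and EMPA (right). On the left 38 and 37 of 41 points lie below 0. On the right the ring genes lie mostly above 0, 12 of 14 on CD and 14 of 14 on EMPA, and Psmd1, Psmd2, Psme1, Psme3 and Psmf1 lie below it.

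The R403Q genotype was compared with WT on each diet. On CD the proteasome genes as a group were close to WT: 26 of 41 were higher, the median log2 fold change was 0.02 (0.01 over all genes), and none passed the adjusted threshold, which 250 genes (1.44%) passed. At an unadjusted p under 0.05, 3 were higher (Psma5, Psma3 and Psmb1) and 2 lower (Psme1 and Psme3), where 20.9% of all genes passed. On EMPA 30 of 41 were higher with a median of 0.07, none was called where 10 genes (0.0578%) were, and 5 were higher at an unadjusted p under 0.05, all of the rings, where 14.7% of all genes passed. DESeq2 called 1 gene on CD, Psma5 (adjusted p = 0.0462), against 5.59% of genes, and 0 on EMPA, against 1.78%. These directions turned with the length gradient described further on as a covariate, under which 28 of 41 genes were lower on CD (median -0.02) and 27 of 41 on EMPA (median -0.03).

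The genotypes were also averaged over the diets, again a comparison added after the values were seen. Here 3 of 41 genes, all of the alpha ring, were called higher in R403Q hearts: Psma5, Psma3 and Psma7. This was a smaller share than that of all genes, of which 1883 of 17309 (10.9%) were called, 1091 higher and 792 lower. At an unadjusted p under 0.05, 7 of 41 were higher and 5 lower, a share close to the 29.0% of all genes. The proteasome genes were thus called no more often than genes at large. DESeq2 called 5, against 16.0% of genes: these 3, Psmb1 (higher) and Psme3 (lower).

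Psma5 (ENSMUSG00000068749, chr3:108256926-108279974, + strand), an alpha subunit, had 18.6, 19.1, 19.3, 20.9 and 21.4 CPM in WT-CD and lay between 21.7 and 27.4 (median 24.0) in R403Q-CD. It had 15.3, 16.0, 19.3, 18.8 and 16.3 in WT-EMPA and 25.3, 20.3, 19.7 and 17.1 in R403Q-EMPA. The genotypes did not overlap on CD, the only proteasome gene of which this was true (2.12% of all genes), and overlapped on EMPA. The log2 fold change was 0.28 ± 0.09 on CD (adjusted p = 0.0872), 0.26 ± 0.10 on EMPA (adjusted p = 0.228) and 0.27 ± 0.07 in the average, or 20.7% (adjusted p = 0.0150).

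Psma3 (ENSMUSG00000060073, chr12:70974621-70996347, + strand) had 27.3, 24.9, 29.4, 28.0 and 30.0 CPM in WT-CD and lay between 26.9 and 36.0 (median 31.4) in R403Q-CD. On EMPA it had 23.9, 23.4, 28.5, 25.8 and 25.2 in WT and 34.1, 31.1, 26.0 and 27.2 in R403Q hearts. R403Q-CD replicate 3 and R403Q-EMPA replicates 3 and 4 lay among the WT mice. The average log2 fold change was 0.22 ± 0.06 (adjusted p = 0.0267).

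Psma7 (ENSMUSG00000027566, chr2:180036374-180042433, - strand), the most abundant of the 3, had 150.2, 139.7, 148, 145 and 166 CPM in WT-CD and 127, 124, 151, 132 and 128 in WT-EMPA. It lay between 142 and 191 (median 160.1) in R403Q-CD and had 168, 144, 159 and 147 in R403Q-EMPA. The genotypes overlapped on both diets, and the average log2 fold change was 0.17 ± 0.05 (adjusted p = 0.0473).

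These calls depended on how cages and transcript length were treated. With cage as a replicate block, which compares the genotypes within cages, 0 of 41 genes were called where 944 of 17309 were, and the adjusted p rose to 0.0571 for Psma5 (log2 fold change 0.26), 0.0880 for Psma3 and 0.136 for Psma7. Cage 68691 held 3 WT-EMPA mice and no R403Q mouse, so it gives no comparison within the cage. Cages 68692 and 68695 held 1 WT-EMPA mouse each. The block thus rests on fewer mice, and a lost call does not show an effect of cage. Psma5 stayed called without any single mouse. Psma3 was not called without WT-EMPA replicate 1, R403Q-EMPA replicate 1 or R403Q-EMPA replicate 2 (adjusted p up to 0.0755), and Psma7 was not called without any of 16 of the 21 mice (up to 0.113). Over all alternatives the log2 fold change lay between 0.10 and 0.27 for Psma3 and between 0.05 and 0.23 for Psma7. Scaling to library size alone placed the median of all genes at 0.07 in this comparison and the median proteasome gene at 0.11, and called 9 of the 41 with 1909 genes higher and 443 lower in all.

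Macrophage markers moved with the genotype: 6 of 6 were called higher in the average, with summed levels between 158 and 261 CPM in WT and between 263 and 426 CPM in R403Q hearts, and 2 of 6 fibroblast, 2 of 6 endothelial and 1 of 2 natriuretic peptide genes were also called higher. Of 7 cardiomyocyte genes, 1 was called lower. Their part in the differences of Psma5, Psma3 and Psma7 was not tested. Without R403Q-CD replicate 2, the mouse with the most fibroblast and natriuretic peptide RNA, 3 proteasome genes were called in the average, as with all mice, where 2156 of 17176 genes were called.

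Outside the alpha ring, the main edgeR fit called no proteasome gene by genotype, whereas DESeq2 called Psmb1 and Psme3 in the average. With 1 mouse left out at a time, edgeR called Psmb1 in 4 and Psme3 in 1 of 21 fits of this average. The activators and the inhibitor were lower in 4 of 5 genes on each diet, with Psme1 at 134 ± 22.9 CPM in R403Q-CD against 159 ± 10.3 in WT-CD (SD, log2 fold change -0.25 ± 0.10, adjusted p = 0.150). The lowest Psme1 value of 21 mice, 93.1 CPM, was that of R403Q-CD replicate 2, and without this mouse the log2 fold change was -0.19 (adjusted p = 0.205). Psme3 had 76.2 ± 3.22 CPM in WT-CD and 69.9 ± 6.77 in R403Q-CD, 77.3 ± 3.35 in WT-EMPA and 70.9 ± 1.63 in R403Q-EMPA, and the EMPA groups did not overlap. Its average log2 fold change was -0.13 ± 0.05 (adjusted p = 0.0747). Psmd2, a scaffold subunit of the base, was the other gene whose EMPA groups did not overlap (-0.12 ± 0.06, adjusted p = 0.353), so that 2 of 41 genes did so, against 6.77% of all genes. Psmd1, the other scaffold subunit, had -0.12 ± 0.07 on CD and -0.09 ± 0.07 on EMPA (average adjusted p = 0.164). Psme1, Psme2 and Psmb5 lie on chromosome 14 at 611, 621 and 324 kb from Myh6, the gene that carries the mutation (chr14:55578123-55581529, chr14:55587441-55591113 and chr14:54614119-54618022).

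Genes of the base and lid were near 0 by genotype, with a median of 0.01 on CD and 0.04 on EMPA. This contrast with the ring genes was smaller among short genes. In the shortest of the 4 length classes described further on, 5 base and lid genes had medians of 0.04 on CD and 0.11 on EMPA. The 10 ring genes of that class had 0.04 and 0.14. Psmc6 had the highest estimates of the ATPases (0.14 and 0.11, average adjusted p = 0.112). Psmd14, the gene with the clearest difference by diet, had 0.00 ± 0.07 by genotype on CD, 61.8 ± 3.78 against 61.7 ± 3.25 CPM (mean ± SD, 7 and 5 mice). Of the chaperones, Pomp (0.11 and 0.14) and Psmd10, which holds ATPases during base assembly (0.13 and 0.14), were higher on both diets, with average adjusted p of 0.146 and 0.205. By edgeR, the interaction of genotype and diet had its smallest unadjusted p values at Psmc5 (0.13 ± 0.08, unadjusted p = 0.148), Psmd14 (0.14 ± 0.10, unadjusted p = 0.162) and Psmb5, all with an adjusted p of 0.999.

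Ring genes have short transcripts, and the libraries differed in their balance of short and long transcripts. The longest annotated transcript had a median of 1220 bases over the 14 ring genes and 1986 bases over the 18 base and lid genes, and 10 of the 14 but 5 of the 18 fell in the shortest of 4 equal length classes of tested genes (at most 1745 bases). In WT hearts on EMPA the shortest class of all genes had a median log2 fold change of -0.07 and the longest class 0.06. Averaged by genotype the shortest class had 0.08 and the longest -0.05 in R403Q hearts. The 17 proteasome genes of the shortest class had medians of -0.18 and 0.09 in these comparisons, the same direction as short genes at large. In R403Q hearts on EMPA the classes of all genes differed less (-0.01 in the shortest and 0.03 in the longest), and the medians of the proteasome genes in the 4 classes, from short to long, were -0.08 (17 genes), -0.06 (17), -0.08 (6) and -0.10 (1).

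For each mouse, the median deviation of the shortest class minus that of the longest class was taken as its length gradient. It was -0.29, -0.18 and -0.22 (log2) in WT-EMPA replicates 1, 2 and 5, 0.31 in R403Q-CD replicate 4 and 0.22 in R403Q-EMPA replicate 1, and lay between -0.09 and 0.09 in the other 16 mice. The median deviation of the 14 ring genes was -0.27, -0.22 and -0.25 in the first 3 mice and 0.30 and 0.24 in the other two, so that the same mice were lowest and highest by both measures. The 18 base and lid genes had medians of -0.02, -0.13 and -0.08 in the first 3 and 0.10 and 0.05 in the other two.

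**Figure D5:**
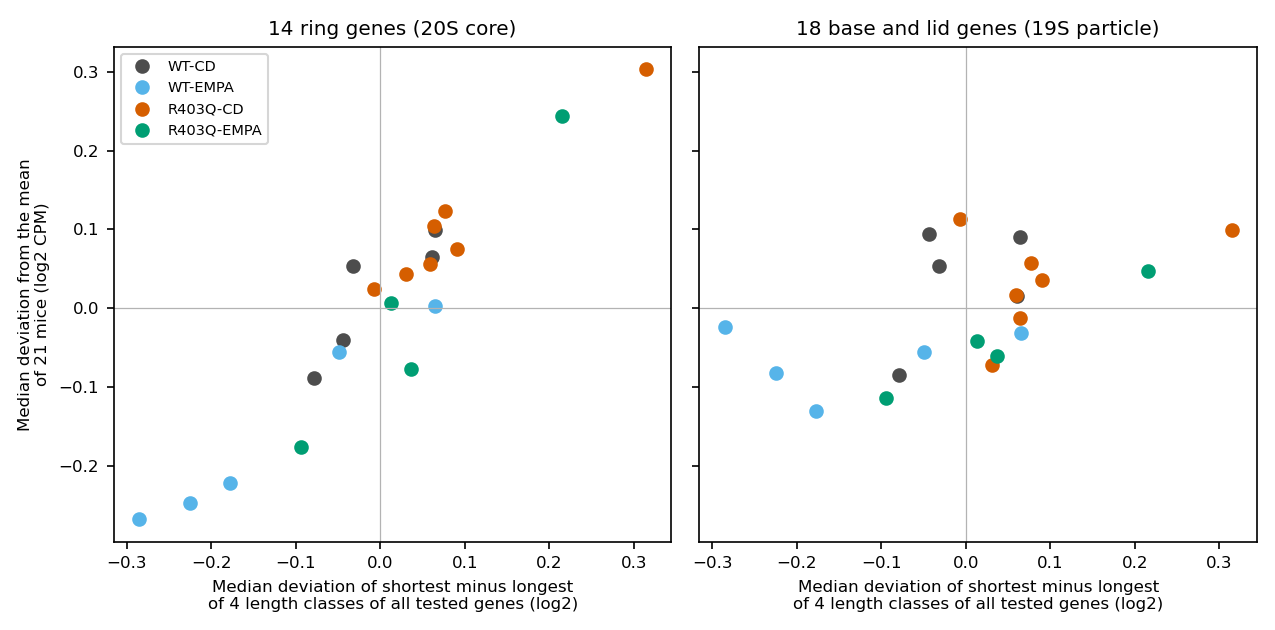
Median deviation (log2 CPM) from the mean of 21 mice of the 14 ring genes (left) and the 18 base and lid genes (right) against the length gradient of each mouse, the median deviation of the shortest minus the longest length class of all tested genes, with points coloured by group. Ring genes run from -0.27 in WT-EMPA replicate 1 to 0.30 in R403Q-CD replicate 4 along the gradient, and base and lid genes stay between -0.13 and 0.11.

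With the gradient as a covariate in the same fit, an alternative added after these values were seen, the average diet effect kept 3 calls among the proteasome genes and 210 among 17309 genes: Psmd14 (-0.19, adjusted p = 0.0407), Psmc4 (adjusted p = 0.0423) and Psmd8 (adjusted p = 0.0451), with Psmc1 at 0.123 and a median over the 41 genes of -0.05. The average genotype effect kept 0 calls, where 266 of 17309 genes were called: Psma5 was at 0.12 (adjusted p = 0.226), Psma3 at 0.10 (0.335) and Psma7 at 0.05 (0.548), and the median of the 41 genes turned from 0.05 to -0.03, with 32 of 41 lower. The gradient differs between the groups, so the covariate also takes up what the groups share with it.

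Other genes of the ubiquitin and proteasome pathway were read from a list of 42, of which 41 were tested. None was called in any of the 4 single comparisons or the interaction. In the average over genotypes 2 of 41 were called, where 2.91% of all genes were: Psmb10, an inducible catalytic subunit that replaces Psmb7 in the immunoproteasome, fell on EMPA (-0.24 ± 0.06, adjusted p = 0.0405), and Ddi2, the protease that activates Nfe2l1, rose (0.25 ± 0.06, adjusted p = 0.0328). Psmb10 had 37.5 ± 4.35 CPM in WT-CD (SD), 31.6 ± 2.29 in WT-EMPA, 45.6 ± 5.26 in R403Q-CD and 38.6 ± 2.85 in R403Q-EMPA, and Ddi2 69.3 ± 5.57, 83.8 ± 9.43, 63.6 ± 5.84 and 74.7 ± 9.76. Both calls were lost with the length gradient as a covariate (adjusted p = 0.127 for Psmb10 and 0.104 for Ddi2) and with cage as a random effect (0.112 and 0.0930, at log2 fold changes of -0.24 and 0.25), and that of Psmb10 also without the filter on low counts (0.0534) and with limma on variance-stabilized values (0.0509). With 1 mouse left out at a time Psmb10 was called in 11 and Ddi2 in 12 of 21 fits (adjusted p up to 0.101 and 0.0945). Nfe2l1 itself had 646 ± 50.3 CPM in WT-CD and 765 ± 76.6 in WT-EMPA, 603 ± 56.6 in R403Q-CD and 659 ± 52.5 in R403Q-EMPA (0.19 ± 0.06 in the average, adjusted p = 0.0855).

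Averaged over diets, 3 of these 41 genes were called by genotype, where 10.9% of all genes were. Psmb10 (0.29 ± 0.06, adjusted p = 0.00928) and Sem1, the smallest lid subunit (0.27 ± 0.08, adjusted p = 0.0442), rose in R403Q hearts, and Ubqln1, a shuttle of ubiquitinated proteins to the proteasome, fell (-0.14 ± 0.04, adjusted p = 0.0295). None of the 3 was called with the length gradient as a covariate (adjusted p = 0.123, 0.639 and 0.274), and with cage as a replicate block Psmb10 alone was (0.0311, against 0.117 for Sem1 and 0.0693 for Ubqln1), at log2 fold changes of 0.26 ± 0.10 for Sem1 and -0.16 ± 0.05 for Ubqln1. With 1 mouse left out at a time, Psmb10 was called in 21, Ubqln1 in 15 and Sem1 in 8 of 21 fits. The further inducible subunits Psmb8 and Psmb9 had 0.33 ± 0.11 and 0.32 ± 0.11 (adjusted p = 0.0548 and 0.0674), at 9.73 and 4.44 CPM in WT-CD, and both are also expressed by the macrophages whose markers were higher in R403Q hearts, a part that was not tested. The muscle ubiquitin ligases Trim63 and Fbxo32 were not called: on EMPA their average log2 fold changes were 0.19 ± 0.11 and 0.32 ± 0.13 (adjusted p = 0.358 and 0.167), and by genotype -0.07 ± 0.11 and -0.23 ± 0.13 (adjusted p = 0.712 and 0.241).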

How the data were processed

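RNA of frozen left ventricle was sequenced in 21 mice. The authors made poly(A)-selected libraries (NEBNext Ultra II), aligned read pairs to mm10 with STAR 2.6.0c and, with featureCounts (Subread 1.6.2), deposited counts of uniquely aligned proper pairs per Ensembl gene, with mitochondrial genes left out. The authors also deposited log2-scale variance-stabilized values made with DESeq2 1.32.0, used here in an alternative. Depth was 23491535 to 43539684 counts per mouse, and 3 counts came to 0.0621 to 0.127 CPM, a limit that covers counting error only.

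Genes were matched by Ensembl identifier to GENCODE M21 (GRCm38, the mm10 build), which named 55104 of 55450. Counts of the 4 groups were fitted together with edgeR 4.0.16 (R 4.3.3): filter on low counts with a minimum of 10, TMM scaling, quasi-likelihood test, Benjamini-Hochberg adjusted p under 0.05 over 17309 genes. Log2 CPM used a prior count of 2, CPM values used TMM-scaled library sizes, and SE was the log2 fold change divided by the square root of F. Both averaged comparisons and the length gradient were added after values were seen. Alternatives were DESeq2 1.42.0, limma 3.58.1 on the variance-stabilized values, cage as a replicate block or a random effect, other scaling, no filter, fewer groups per fit and each mouse left out.

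The members and lists were chosen with earlier results of these data known. All 41 members are given by subcomplex. Genes named with values are Psmb5, Psmb6 and Psmb7, the 2 with the smallest p per subcomplex in R403Q-CD against WT-CD, the 3 with the smallest p in each other comparison, and any called. Outside the proteasome genes these are Psmb8, Psmb9, Psmb10, Nfe2l1, Trim63, Fbxo32 and any called. Psmd13, Psmf1 and others outside this rule were named after their values were seen. Groups come from genotype and diet in the labels, and replicate numbers follow the order of deposit, so they pair no mice. No mouse was left out. The fit was tested on simulated counts. RefSeq promoter windows (GRCm38.p6) were searched on both strands.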

Additional observations from a re-analysis of the deposited data

Results flagged for a closer look

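In 88 groups of 4 to 7 mice, 22 quantities being tested in 4 groups each, 4 held a mouse whose gap to its nearest neighbour was large against the range of its group (Dixon's criterion at 95%), about as many as the 1 in 20 that chance gives. Psmb1 was at 7.40 log2 CPM in R403Q-CD replicate 4, against 7.17 to 7.25 in the other R403Q-CD mice. Psmc5 was at 6.98 in R403Q-EMPA replicate 1, against 6.80 to 6.82. Psmd1 was at 7.46 in WT-EMPA replicate 1, against 7.24 to 7.27. The median deviation of the 41 proteasome genes was -0.0686 (log2) in WT-CD replicate 2, against 0.05 to 0.10 in the other WT-CD mice. R403Q-CD replicate 4 and R403Q-EMPA replicate 1 also had the highest length gradients and WT-EMPA replicate 1 the lowest, and the part of the gradient in these values was not tested.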

How the results depend on the processing

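Of 3276 alternative values of the 21 named genes, 3200 stayed on the same side of the threshold (143 of these, past no threshold, changed sign), 52 lost a call, 24 gained one and 0 called values reversed. Most of these values belong to comparisons in which the gene was not called, so that no call could be lost there. All 52 losses fell on genes called in the averaged comparisons. Psmd14 by diet kept its call in 6 of 6 settings and in 21 of 21 fits without 1 mouse. Psma7 by genotype kept its call in 2 of 7 settings and in 5 of 21 such fits. Counts of calls moved as well. DESeq2 called 971 genes in R403Q-CD against WT-CD, 145 on EMPA in R403Q, 114 on EMPA in WT, 297 between genotypes on EMPA and 984 by diet on average, with 1 proteasome gene in the first, 2 in WT on EMPA, 10 by diet and 5 by genotype on average. Without the filter 314 genes and 2 proteasome genes were called by diet on average, and 1300 genes and 1 proteasome gene by genotype. Scaling to library size alone gave 5 genes on EMPA in R403Q and 0 in WT, and on average 471 genes and 7 proteasome genes by diet and 2352 genes and 9 proteasome genes by genotype. Fits of 3 groups called 98 genes in R403Q-CD against WT-CD and 0 on EMPA in R403Q, and fits of 2 groups 28 and 0, with 123 between genotypes on EMPA. Limma on variance-stabilized values called 1 gene on EMPA in WT.

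With cage as a replicate block within 1 diet, 19 genes were called in R403Q-CD against WT-CD, 6 between genotypes on EMPA and 944 by genotype on average, with 0 proteasome genes. With cage as a random effect the counts were 475 in R403Q-CD against WT-CD, 1 on EMPA in WT and 113 by diet on average. The replicate numbers used here follow the order of deposit and pair no mice, and the number that the labels share between genotypes is the cage. With the length gradient as a covariate, 134 genes were called in R403Q-CD against WT-CD, 12 on EMPA in R403Q, 0 on EMPA in WT (median proteasome gene -0.0505), 1 between genotypes on EMPA (median -0.0269), 210 by diet and 266 by genotype on average, with 0 proteasome genes in the last.

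Leaving out 1 mouse at a time gave 31 (without WT-CD replicate 3) to 1045 genes (without R403Q-CD replicate 3) in R403Q-CD against WT-CD, 0 (without R403Q-CD replicate 5) to 12 on EMPA in R403Q, 0 to 7 on EMPA in WT, 1 (without R403Q-EMPA replicate 1) to 64 (without WT-EMPA replicate 3) between genotypes on EMPA, and 0 in the interaction. By diet on average it gave 122 (without R403Q-EMPA replicate 3) to 929 genes (without R403Q-CD replicate 3), with 2 to 9 proteasome genes (without R403Q-EMPA replicates 3 and 1), and by genotype 961 to 2764 genes (without R403Q-EMPA replicate 1 and R403Q-CD replicate 3), with 1 to 5 proteasome genes (without WT-EMPA replicate 1 and R403Q-CD replicate 3). The single comparisons and the interaction kept 0 proteasome genes. Medians over the 41 genes ranged from -0.01 to 0.04 in R403Q-CD against WT-CD, -0.14 to -0.05 on EMPA in R403Q, -0.17 to -0.12 on EMPA in WT, 0.02 to 0.11 between genotypes on EMPA, 0.00 to 0.08 in the interaction, -0.15 to -0.09 by diet and 0.02 to 0.08 by genotype. The cause of these movements was not tested. Each of the 41 genes was above 3 counts in every mouse, and the part of depth in these movements was not tested either.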
